A study of Mus musculus with 5 samples.

Results

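The untreated library of MG5 cells, a mouse microglial cell line, is described here by the level of each protein-coding gene. The members were all genes that the deposited table annotates as protein-coding, 21949 of its 45777 genes, in 1 of its 5 libraries. The study exposed MG5 cells to bexarotene (BEX), a drug that activates the retinoid X receptors, or to a compound coded 6OHA, and profiled them by RNA-seq beside untreated cells. The samples used were 1 untreated library (replicate 3), 1 library of cells given 10 µM 6OHA for 6 h (replicate 2) and 3 libraries of cells given 10 µM BEX for 6 h (replicates 1 to 3). All carry the genotype label WT. The design names 3 samples per group, and the other untreated and 6OHA samples were not analysed here. Neither a vehicle nor a time in culture is given for the untreated cells, and nothing says that the replicates came from separate cultures.

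All cells, the untreated ones included, grew in a medium made of 30% DMEM containing 10% FBS and antibiotics and 70% medium conditioned by A1 cells, a mouse astrocyte-like line. MG5 is a single line, known to derive from p53-deficient mice, and it stands for microglia only as far as a proliferating line kept in conditioned medium does. Microglia are the resident macrophages of the brain. They depend on the CSF1 receptor, are specified by the transcription factor PU.1 together with other myeloid factors, and survey the tissue through purinergic, chemokine, Fc and pattern-recognition receptors. Nuclear receptors are transcription factors switched by lipids and hormones; the retinoid X receptors bind DNA as partners of the retinoic acid, liver X and peroxisome proliferator-activated receptors.

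Levels are given as TPM, a length-scaled share of the library that divides reads by gene length, so that genes can be compared with each other. A gene was called present at 1 TPM or more and 10 counts or more in the untreated library. The untreated library held 35441084 counts, and the 5 libraries held between 33823181 and 40545305. A count of 0 in the untreated library allows up to 3 counts, or 0.0846 CPM (counts scaled to library size, with no length correction). This limit and the exact Poisson 95% intervals given for low genes cover counting error only. With 1 untreated library there is no replicate of the baseline and no test. The lowest and highest TPM over the 5 libraries show how far a level held, and that range includes any response to BEX or 6OHA. In bulk RNA, fewer cells expressing a gene and less RNA per cell cannot be told apart.

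Of the 21949 protein-coding genes, 10868 (49.5%) were present, 8798 (40.1%) had 0 counts, and 2283 (10.4%) had counts but fell below presence. Counts of present members in the lists and families below stand against this share of 49.5%. Of the genes at 0, 7448 were at 0 in all 5 libraries. Another 1350 had at least 1 count in a treated library, 145 reached 10 counts in one of these, and 9 did so in all 4. Protein-coding genes held 95.8% of the library's TPM and 97.6% of its counts. The median level of a present gene was 24.8 TPM.

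The 113 genes at 1000 TPM or more held 35.1% of the protein-coding TPM, while the 6510 genes between 10 and 100 TPM held 24.9%. The 10 most abundant genes held 13.6% and the 100 most abundant 33.7%, and 347 genes were enough to reach 50%. The 2772 genes between 1 and 10 TPM held 1.42%. Levels held closely across libraries: 10473 present genes (96.4%) stayed within 2-fold between their lowest and highest library and 9354 (86.1%) within 1.5-fold. The share within 2-fold was 89.0% between 1 and 10 TPM and 98.8%, 99.3% and 97.3% in the 3 higher classes. The median coefficient of variation over the 3 BEX replicates fell with each higher class, from 9.18% to 4.15%, 2.67% and 2.09%. The lowest class of present genes is thus the least precisely measured of them.

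**Figure D1:**
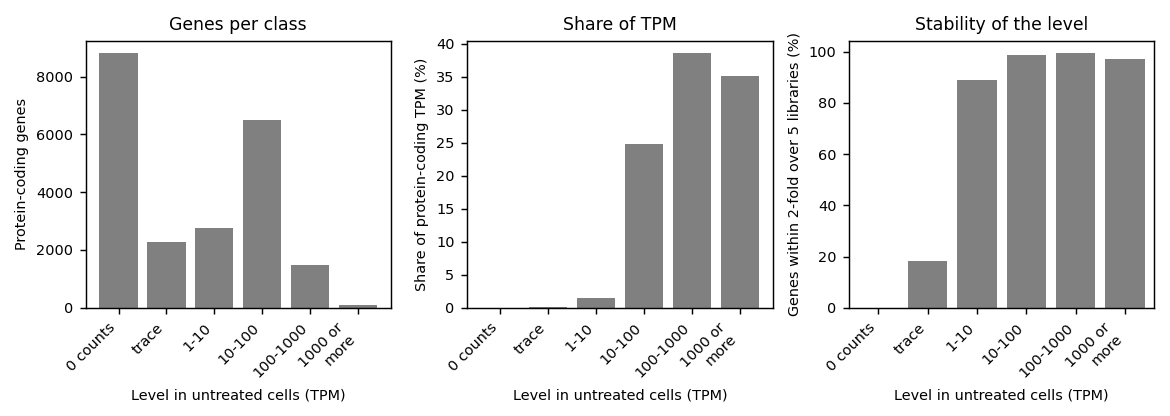
Protein-coding genes by their level in the untreated library, with the number of genes, the share of protein-coding TPM and the share of genes whose TPM stayed within 2-fold over the 5 libraries. The class marked trace holds genes with counts but under 1 TPM or under 10 counts; the class at 0 counts has no fold. The 113 genes at 1000 TPM or more are the smallest class and hold 35.1% of the TPM.

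The 30 most abundant genes included both ferritin chains, lysozyme, lysosomal enzymes, mitochondrially encoded subunits, osteopontin and antigen presentation genes, beside general genes such as Eef1a1 and Actb. Ftl1, the light chain of ferritin, led at 23952 TPM in the untreated library, with 14588 in the 6OHA library and 19656, 19280 and 21456 in the BEX libraries. Its untreated level was the highest of the 5. Fth1, the ferritin heavy chain, was at 13980 TPM, against 11979 with 6OHA and 11165, 11590 and 12022 with BEX. The ferritin pair held 3.96% of the protein-coding TPM. Processed copies of the light chain were also counted, Ftl1-ps1 at 2204 TPM and Ftl2-ps at 478 TPM, so the division of reads among Ftl1 and these copies is uncertain.

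Lyz2, the lysozyme of macrophages, was at 16788 TPM, with 15921 in the 6OHA library and 15218, 15304 and 15464 in the BEX libraries. Spp1, which encodes the secreted phosphoprotein osteopontin, was at 10631 TPM, with 8848 for 6OHA and 8996, 8347 and 9261 for BEX. For both, the 3 BEX libraries lay closer to each other than to the untreated one. Behind them came Tmsb4x (7909 TPM), which encodes an actin-binding peptide, the elongation factor gene Eef1a1 (6877) and B2m (5763), the light chain of class I molecules.

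Lysosomal genes made up much of the next stretch. Cathepsin D (Ctsd) was at 5260 TPM and 6852 to 7052 in the BEX libraries, with 6893 for 6OHA, so the untreated level was the lowest of the 5. Cathepsin S (Ctss), an endosomal protease of antigen-presenting cells, was at 3805 TPM and moved only between 3710 and 3849. Gpnmb, a membrane glycoprotein found in phagocytes, was at 3695 TPM, Grn, which encodes progranulin, at 2928, Psap, the precursor of the saposins, at 2598, and cathepsin Z (Ctsz) at 2586. Of a list of 28 lysosomal genes, 27 were present and together held 3.02% of the protein-coding TPM; Ctsw, a cathepsin of cytotoxic lymphocytes, was at 0 in all 5 libraries. Further down were Npc1 (246 TPM), the cholesterol exporter of the lysosome, whose gene overlaps Rmc1, and Lipa (229), the lysosomal acid lipase.

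All 13 mitochondrially encoded proteins were present and held 8.96% of the protein-coding TPM. COX1, a subunit of cytochrome oxidase, was second of all genes at 22888 TPM and ranged from 22888 to 24849 over the 5 libraries. It led the list in every treated library. ATP6 overlaps ATP8 and COX3, and ND6 overlaps ND5, so their single levels are uncertain. Cytosolic ribosomal protein genes, 78 of 81 of them present, held a further 6.78%, led in the untreated library by Rps9 at 2218 TPM. Rps9 ranged from 1248 to 2218 TPM over the 5 libraries. In the 6OHA library, its lowest, it lay below Rpl10 (1617 TPM). The remaining members of the top 30 were Actb, Cd74, H2-D1, Ppia, C1qa, Pkm and Lgals1 beside further mitochondrial genes. All 30 were among the top 50 in every treated library, and 24 of them were also in the top 30 when genes were ranked by CPM without the length correction. Each treated library shared 93 or 94 of its 100 most abundant genes with the untreated one.

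**Figure D2:**
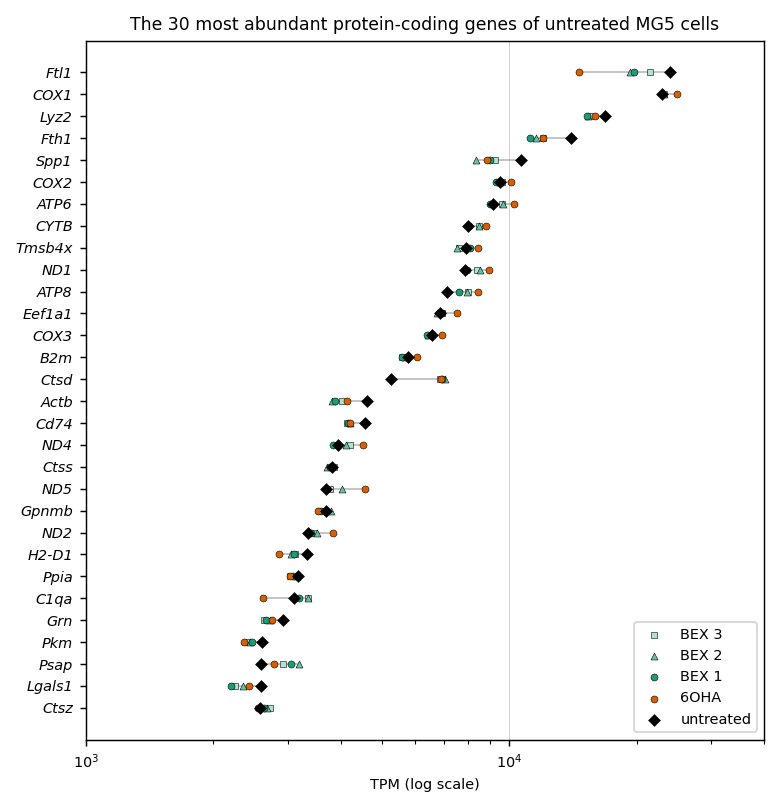
TPM on a log axis of the 30 most abundant protein-coding genes, ordered by the untreated library (black diamonds), with the 6OHA library and the 3 BEX libraries as coloured points and a grey line from lowest to highest. The levels run from 23952 TPM for Ftl1 to 2586 TPM for Ctsz. Most lines are short against that whole span but not against the distance between neighbours. Pkm (2367 to 2613 TPM) and Psap (2598 to 3187 TPM) overlap, for example, so the order of close neighbours is not resolved.

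Microglial identity was read from 28 markers, of which 24 were present (85.7%, against 49.5% of all protein-coding genes). The median over the 28 was 118 TPM. It was 0.859 TPM over all protein-coding genes, those at 0 counts included, and 750 TPM over 12 general macrophage markers. Csf1r, the receptor for CSF1 and IL-34, was at 1622 TPM in the untreated library, 1657 in the 6OHA library and 1662, 1602 and 1627 in the BEX libraries. Its 5 values differ by a factor of 1.04. Trem2, a lipid-sensing receptor of microglia, was at 653 TPM, with 558 for 6OHA and 615, 648 and 635 for BEX, and its signalling adaptor Tyrobp was at 1510 TPM with a range of 1393 to 1510. Apoe, the lipid carrier, was at 1259 TPM, with 1168 for 6OHA and 1231, 1366 and 1326 for BEX; the untreated value lay inside the range of the treated ones.

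The 3 chains of C1q, the starter of the classical complement pathway, were at 3099 TPM (C1qa), 2042 (C1qb) and 2098 (C1qc), and each stayed within 1.28-fold. Fcrls, an Fc receptor-like gene of microglia, was at 500 TPM. P2ry12, Tmem119, Cx3cr1 and Gpr34, which are used to set microglia apart from other macrophages, lay below 100 TPM. P2ry12, the ADP receptor that guides microglial processes, was at 69.8 TPM, with 73.2 for 6OHA and 62.5, 61.8 and 63.8 for BEX. Tmem119, a membrane protein used to mark microglia, was at 51.3 TPM, with 59.0 for 6OHA and 65.3, 67.3 and 66.3 for BEX, all above the untreated value. Cx3cr1, the fractalkine receptor, was at 18.3 TPM and between 13.2 and 19.4 over the 5 libraries. Gpr34, a lysophosphatidylserine receptor, was the lowest marker present, at 8.43 TPM, and at most 16.8 in a treated library. P2ry12 and P2ry13 lie inside Med12l and Gpr34 overlaps Cask, and no source used here says whether the authors counted by strand.

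Of the 28 markers, 24 were present and 4 were not. Presence alone does not set microglia apart from other macrophages. All 12 general macrophage markers and 11 of 15 border-associated and tissue macrophage markers were present too. Sall1, a transcription factor that maintains microglial identity in the mouse brain, and Siglech, a sialic-acid-binding receptor of microglia, had 0 counts in all 5 libraries. Slc2a5, a fructose transporter, had 10 counts (0.179 TPM) and Sparc, a secreted matrix protein, had 3 counts (0.0662 TPM). Neither Sall1 nor Siglech was detectable at this depth.

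All 12 general macrophage markers were present, from Lyz2 down to Fcgr1, the high-affinity IgG receptor, at 163 TPM. Cd14, the co-receptor for lipopolysaccharide, was at 2345 TPM, Cd68, a lysosomal membrane protein, at 1787, and Adgre1, the F4/80 antigen, at 426. The summed level of the list was 27827 TPM and lay between 25139 and 26356 in the treated libraries. Markers of border-associated and other tissue macrophages split: 11 of 15 were present, led by Pf4, a chemokine, at 1327 TPM, Ms4a7 at 395, Stab1, a scavenger receptor, at 282, Siglec1 at 188 and Mrc1, the mannose receptor, at 185. Lyve1, Cd163 and Vsig4 were at 0 in all 5 libraries, and Timd4, a phosphatidylserine receptor, had 10 counts (0.255 TPM). Pf4 was lowest in the untreated library, and reached 1433 with 6OHA and 1759, 1899 and 1849 with BEX.

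**Figure D3:**
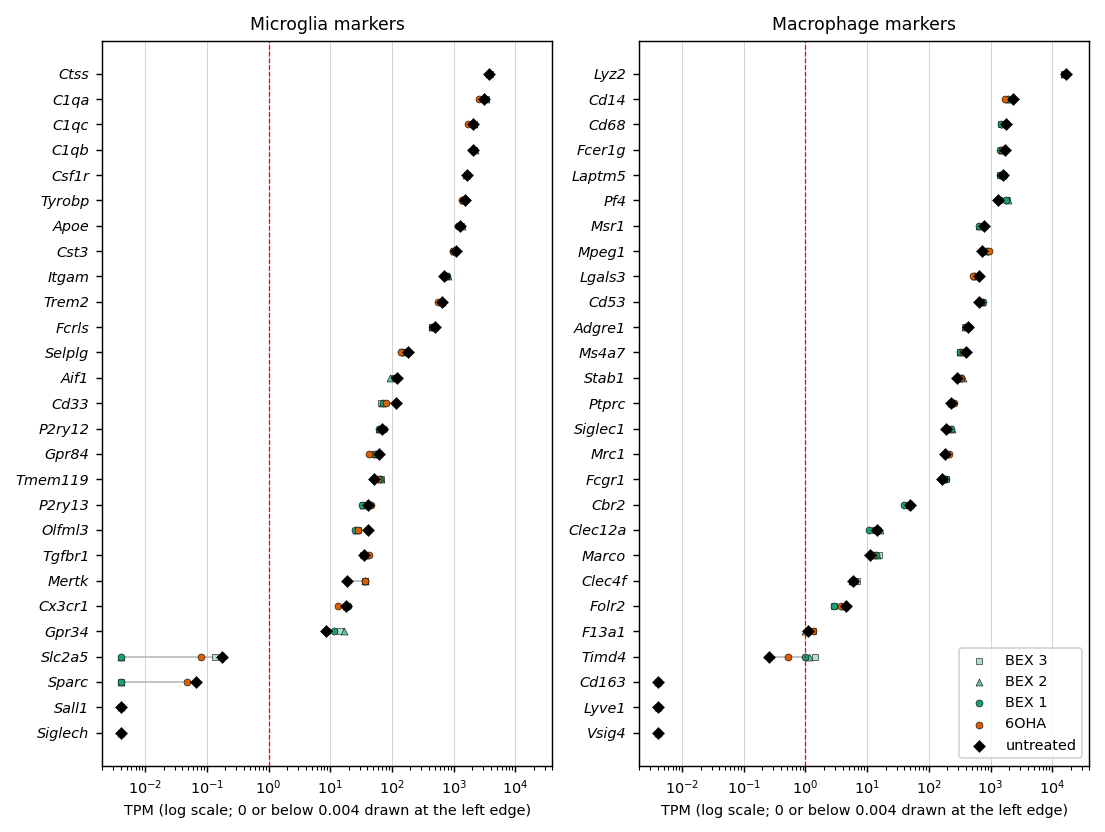
TPM on a log axis for 27 of the 28 microglia markers (left) and 27 general, border-associated and tissue macrophage markers (right), in the untreated library (black diamonds), the 6OHA library and the 3 BEX libraries. The dashed line marks 1 TPM, and values of 0 or under 0.004 are drawn at the left edge. Sall1, Siglech, Cd163, Lyve1 and Vsig4 sit at 0 in all 5 libraries, and the other black diamonds left of the line are Slc2a5, Sparc and Timd4.

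Promoter sequence was available for part of these genes. The letters GAGGAAGT, a form of the purine-rich element that PU.1 binds, were searched on both strands in the 300 bases from 250 before to 50 after the start given by RefSeq for GRCm38.p6. They occurred in 557 of 17519 protein-coding promoters (3.18%). Promoters of genes at 0 counts hold them too, such as those of the neutrophil genes Elane and Mpo. Stretches of 120 bases upstream of 3 abundant genes are shown as examples, chosen after their levels and matches were seen; capitals mark the motif, read on the gene's own strand, where ACTTCCTC is the same motif on the other strand. They lie at chr5:104434942-104435061 (Spp1, plus strand), chr4:136893045-136893164 (C1qc, minus strand) and chr5:90772315-90772434 (Pf4, plus strand), and the motif begins 113, 195 and 10 bases before the start. A match describes letters and is not shown to be a bound site.
Spp1: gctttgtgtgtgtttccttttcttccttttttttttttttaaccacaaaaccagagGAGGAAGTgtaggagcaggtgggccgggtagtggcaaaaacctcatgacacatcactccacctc
C1qc: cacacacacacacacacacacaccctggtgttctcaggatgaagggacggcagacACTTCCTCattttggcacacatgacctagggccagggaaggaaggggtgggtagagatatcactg
Pf4: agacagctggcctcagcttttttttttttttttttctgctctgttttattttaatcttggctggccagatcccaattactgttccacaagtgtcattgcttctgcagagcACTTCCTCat

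Markers of other cell types were mostly at 0. Of 7 monocyte markers, Cd44 (290 TPM), Spn (83.4), Ccr2 (31.1) and Ly6c2 (13.9) were present, while Plac8 and Chil3 were at 0 in all 5 libraries. Among 10 neutrophil genes only S100a8 was present, at 45.4 TPM, while its partner S100a9 and the granule genes Elane and Mpo were at 0 in all 5 libraries. Of 8 dendritic cell markers only Batf3, a transcription factor, was present (17.8 TPM), and Flt3, Cd209a and Ccr7 were at 0 in all 5 libraries. Lymphocyte markers counted 3 of 14 present, at 3.31 TPM for Klrb1c, 1.71 for Lck and 1.01 for Cd4, with the CD3 chains and Cd8a at 0 in all 5. Of 8 mast cell and erythroid genes, only the haemoglobin gene Hba-a1 was present, at 4.09 TPM from 40 counts, and Hbb-bs, the beta chain, was at 0; reads of the alpha gene cannot be told apart with confidence from those of its near-identical copy.

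The A1 cells whose medium fed the culture are astrocyte-like, and 2 of 9 astrocyte markers were present. Aldh1l1, an enzyme of folate metabolism, was at 10.8 TPM and stayed between 8.45 and 10.8. Slc1a2, a glutamate transporter, was at 4.21 TPM in the untreated library, 0.595 in the 6OHA library and 0.539, 1.76 and 0.707 in the BEX libraries, the widest spread of the present markers of other brain cells. Gfap, Aqp4, Slc1a3, S100b, Aldoc and Sox9 had 0 counts in the untreated library, and Aqp4 and Sox9 in all 5; the others had at most 10 counts in any treated library. Of 9 neuronal genes Snap25 (4.74 TPM) and Map2 (1.80) were present and Rbfox3, Slc17a7, Gad1 and Nefl were at 0 in all 5 libraries. Mbp, a myelin protein with forms outside the oligodendrocyte lineage, was at 33.2 TPM and Mag at 8.13, while Mog, Olig1, Olig2 and Sox10 were at 0 in all 5 libraries.

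Of 11 fibroblast and endothelial markers, Kdr, the VEGF receptor VEGFR2, was at 80.3 TPM in the untreated library, 77.1 in the 6OHA library and 65.6, 66.3 and 63.4 in the BEX libraries. Cdh5, the endothelial cadherin, was at 4.78 TPM and Pecam1 at 1.15, while Cldn5, Tek and the collagens Col1a1, Col1a2 and Col3a1 were at 0 in all 5 libraries. None of 7 epithelial markers was present. The part of other cells in these levels was not tested.

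Transcription factors of the myeloid lineage were present in 37 of 40 cases, with a median of 35.8 TPM over the list. Spi1, which encodes PU.1, led at 333 TPM, with 278 in the 6OHA library and 289, 298 and 285 in the BEX libraries. Id2, an inhibitor of helix-loop-helix factors, was at 231 TPM, Irf8, a partner of PU.1, at 215, Lmo2 at 214, Ets2 at 171 and Klf6 at 162. Irf8 was lowest in the untreated library and ran up to 290. Cebpb (119 TPM), Mef2a (88.3), Zeb2 (76.4), Ikzf1 (52.6), Maf (43.0), Runx1 (30.7) and Cebpa (25.8) followed. Mef2c was at 12.8 TPM and Egr2 at 3.60. Besides Sall1, its relative Sall3 was at 0 in all 5 libraries, and Bach2, a repressor, was at 0 in the untreated library while reaching up to 85 counts and up to 0.590 TPM in treated ones; the gene overlaps Bach2os.

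Factors of the interferon and NF-kB responses were present in 18 of 20 cases. Irf7, which amplifies type I interferon, was at 197 TPM, Irf5 at 115 (its gene overlaps Tnpo3), Stat3 at 77.1, Irf1 at 73.8 and Nfkb1 at 71.9. Irf4 had 37 counts (0.447 TPM). Of the AP-1, stress and growth factors 18 of 24 were present. Atf4, the effector of the integrated stress response, was at 351 TPM and was lowest in the untreated library, and Xbp1, a factor of the unfolded protein response, was at 155. Jun was at 95.3 TPM, Atf3 at 81.6, Tfe3 at 79.2, Srebf2 and Srebf1, the regulators of sterol and fatty acid synthesis, at 77.2 and 72.1, and Myc at 69.4. Fosl1, Mycn, Mycl, Trp63 and Trp73 were at 0.

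Factors that specify other lineages were at 0 counts in 27 of 30 cases, 25 of them in all 5 libraries, among them Gata1, Pax5, Foxp3, Sox2, Olig2, Neurod1, Myod1, Pou5f1 and Nanog. Gata3 was present at 1.42 TPM from 81 counts, and Tcf7 had 5 counts.

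Nuclear receptors were counted apart, because the study's treatment acts on one of their groups. Of 49 receptor genes, 16 were present (32.7%, against 49.5% of all protein-coding genes), 8 had counts below presence, and 25 had 0 counts, 22 of these in all 5 libraries. Every present receptor stayed within 1.76-fold over the 5 libraries, where 96.4% of all present genes stayed within 2-fold. Of the retinoid X receptors, Rxra, the highest of the 49 genes, was at 62.7 TPM in the untreated library, 57.3 in the 6OHA library and 61.0, 61.7 and 60.0 in the BEX libraries. Rxrb was at 32.2 TPM, with 25.9 for 6OHA and 34.0, 31.5 and 31.2 for BEX. Rxra thus lay 1.95-fold above Rxrb, and between 1.79 and 2.21-fold over the 5 libraries. Rxrg, the remaining member, was at 0 in all 5.

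Partners of the retinoid X receptors were unevenly represented. Nr1h2, which encodes LXR beta, was at 58.0 TPM, with 39.2 in the 6OHA library and 48.5, 54.3 and 51.4 in the BEX libraries, all below the untreated value. Nr1h3, which encodes LXR alpha, had 29 counts and 0.822 TPM, with an interval of 0.551 to 1.18 TPM that reaches across the limit of presence; its gene overlaps Acp2. The beta form was 70.6-fold above the alpha form in the untreated library and 62.8 to 91.7-fold over the 5. Ppard was at 26.5 TPM, between 20.9 and 26.5 over the libraries, while Ppara and Pparg had 0 counts in all 5. Of the retinoic acid receptors, Rara was at 24.6 TPM and Rarg at 10.1, a ratio of 2.42, and Rarb was at 0 in all 5. The vitamin D receptor Vdr had 15 counts (0.197 TPM), Thrb had 0 counts in untreated cells, and Thra was at 3.05 TPM, although it overlaps Nr1d1 and their reads cannot be told apart without strand. Nr1h4, the bile acid receptor, had 0 counts in the untreated library, and Nr1i2, the pregnane X receptor, was at 0 in all 5.

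Among steroid receptors, Nr3c1, the glucocorticoid receptor, was at 41.3 TPM in the untreated library, 44.5 in the 6OHA library and 44.2, 42.6 and 42.7 in the BEX libraries. Esr1, the estrogen receptor alpha, was present at 1.84 TPM. Pgr and Esr2 had 0 counts in all 5 libraries and Nr3c2, the mineralocorticoid receptor, had 0 in the untreated library. Of the orphan receptors, Esrra, a regulator of mitochondrial genes that overlaps Trmt112, was at 20.3 TPM, Nr2f6 at 13.2, Nr2c2, which overlaps Mrps25, at 9.83, the clock receptors Nr1d2 and Nr1d1 at 9.13 and 5.79, Nr2c1 at 4.25 and Nr6a1 at 2.23. Nr4a1, an early-response receptor, fell just short at 0.986 TPM with an interval of 0.714 to 1.33. Nr4a2 (0.493 TPM), Rora (0.478), Esrrg (0.294), Nr4a3 (0.123) and Nr1i3 (1 count) made up the rest below presence. All 15 coregulators listed were present, from Hdac3 at 85.9 TPM, the deacetylase of the corepressor complex, through Ncor1 (46.1) and Ncoa3 (43.3), to Lcor at 3.90; Ncor1 overlaps Ttc19 and Lcor overlaps Morf4l1b.

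**Figure D4:**
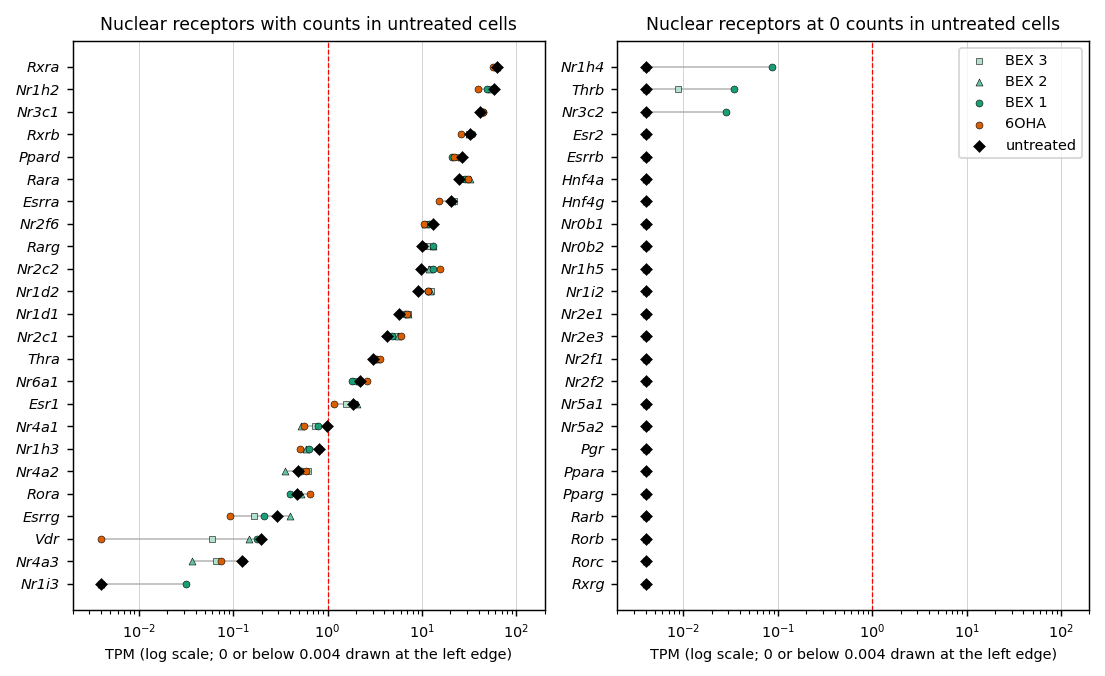
TPM on a log axis of 48 of the 49 nuclear receptor genes, the 24 with counts in the untreated library on the left and 24 at 0 counts on the right, in the untreated library (black diamonds), the 6OHA library and the 3 BEX libraries. The dashed line marks 1 TPM, and values of 0 or under 0.004 are drawn at the left edge. Rxra leads at 62.7 TPM, and no receptor drawn at 0 counts in untreated cells reached 1 TPM in a treated library.

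The promoters of the 2 leading nuclear receptors differ in their CpG content and are shown for that reason, with every CpG in capitals. The windows are the 120 bases before the first start that RefSeq lists in GRCm38.p6, at chr2:27677081-27677200 on the plus strand for Rxra and at chr7:44553966-44554085 on the minus strand for Nr1h2. They hold 23 and 8 CpGs. Over the full window of 300 bases, the Rxra promoter holds 55 CpGs at 83.0% GC and the Nr1h2 promoter 19 at 50.7%. The median over all 17519 protein-coding promoters was 13 CpGs. The 2 genes were at 62.7 and 58.0 TPM, and a relation between CpG content and level was not tested.
Rxra: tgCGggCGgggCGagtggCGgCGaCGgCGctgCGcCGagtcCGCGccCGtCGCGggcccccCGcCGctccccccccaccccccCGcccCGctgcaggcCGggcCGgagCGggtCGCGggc
Nr1h2: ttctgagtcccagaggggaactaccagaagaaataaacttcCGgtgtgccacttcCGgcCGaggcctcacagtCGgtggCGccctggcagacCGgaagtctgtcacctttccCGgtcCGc

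Surface receptors were described by family. Of the Fc, complement and integrin receptors, 21 of 23 were present, with a median of 111 TPM over the list. Fcgr2b, the inhibitory IgG receptor, was at 2406 TPM in the untreated library, 1819 with 6OHA and 1806, 1786 and 1848 with BEX, and was highest in the untreated cells. Fcer1g, the shared signalling chain, was at 1708 TPM and Fcgr3, an activating receptor, at 1371; Fcgr2b and Fcgr3 are closely related, and reads shared between them could have been split. Itgam, the CD11b integrin, was at 703 TPM, Itgb2 at 393 and the complement receptors C5ar1 and C3ar1 at 296 and 111. C5ar1 was at 525 TPM with 6OHA and 597, 617 and 589 with BEX. Cr2 and Vsig4 had 0 counts in all 5 libraries.

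Of the TREM, lectin and inhibitory receptors 26 of 28 were present. Lilrb4a, an inhibitory receptor with a close paralog, was at 1506 TPM, Clec4n, which encodes dectin-2, at 743, and Sirpa, the receptor for CD47, at 602. Clec7a, which encodes dectin-1, was at 12 TPM and Trem1 at 64.8. Siglecg joined Siglech at 0. Of the scavenger and efferocytic receptors 12 of 20 were present, with Cd68, Msr1 (773 TPM) and Cd36 (395) highest. Of the TAM kinases, which recognise dying cells, Axl was at 123 TPM and Mertk at 18.9, with up to 36.8 in a treated library, while Tyro3 had 37 counts (0.472 TPM). Vldlr and Havcr1 were at 0 in all 5.

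Pattern-recognition receptors of the Toll family and their adaptors counted 16 of 19 present. After Cd14, the highest was Tlr7, the endosomal sensor of single-stranded RNA, at 137 TPM, with 147 for 6OHA and 120, 126 and 123 for BEX. Tlr2, the lipoprotein receptor, was at 129 TPM against 76.0 to 86.1 in the treated libraries, and Tlr4, the receptor for lipopolysaccharide, was at 61.0 TPM against 81.1 with 6OHA and 110, 109 and 108 with BEX. Neither range of treated values reached the untreated one, and the order of Tlr2 above Tlr4 was reversed in the BEX libraries. Tlr13 was at 112 TPM, Tlr8 at 36.9, Tlr1 at 34.7, Tlr6 (overlapping Fam114a1) at 23.4, Tlr3 at 20.1 and Tlr9 at 12. Tlr5, the flagellin receptor, Tlr11 and Tlr12 had 24, 12 and 11 counts.

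Of 34 growth factor and cytokine receptors 30 were present. Csf1r was 11.2-fold above Csf2ra (144 TPM), the alpha chain of the GM-CSF receptor. Il2rg, the common gamma chain, was at 322 TPM, Il10rb at 256, Csf2rb at 218 and Ifnar2 at 216. Tgfbr2 and Tgfbr1 were at 76.1 and 35.7 TPM. Il21r was at 67.1 TPM in the untreated library, 147 in the 6OHA library and 174, 175 and 177 in the BEX libraries. Every treated value of Il21r lay above the untreated one. With 1 untreated library, a response to treatment and variation of the baseline cannot be told apart. Il1r1, the signalling receptor of interleukin 1, had 8 counts (0.0818 TPM), and Kit, Flt3 and Pdgfrb had 0.

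Purinergic receptors were present in 10 of 19 cases (52.6%, against 49.5% of all protein-coding genes). P2ry6, the UDP receptor that drives phagocytosis in microglia, was at 205 TPM, above P2rx4 (77.8, overlapping Camkk2), P2ry12, P2ry13 (41.4) and P2rx7 (31.2). Adora3 was at 12.8 TPM, Adora2a had 3 counts and Adora1 was at 0 in all 5. Chemokine receptors were present in 7 of 22 cases, among them Ccr1 at 379 TPM, Cxcr4 at 64.4 and Ccr2 at 31.1, all above Cx3cr1. Ccr7 was at 0 in all 5 libraries and Ackr3 was present at 1.27 TPM. Receptors for neurotransmitters and neuromodulators were present in 7 of 31 cases, among them Htr2b (24.9 TPM, overlapping Psmd1), Cnr2 (24.8), the cannabinoid receptor of immune cells, Chrm3 (15.9), Ptger4 (11.6), Hrh1 (10.3) and Ptger2 (8.72). The other 24 held 15 genes at 0 counts, among them Grin2a, Gria1, Gria2, Grm5, Drd2, Cnr1 and Oprm1. Of 20 channels and transporters 17 were present, from Clic1 (888 TPM) to Kcnk13, a potassium channel of microglia, at 11.1.

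**Figure D5:**
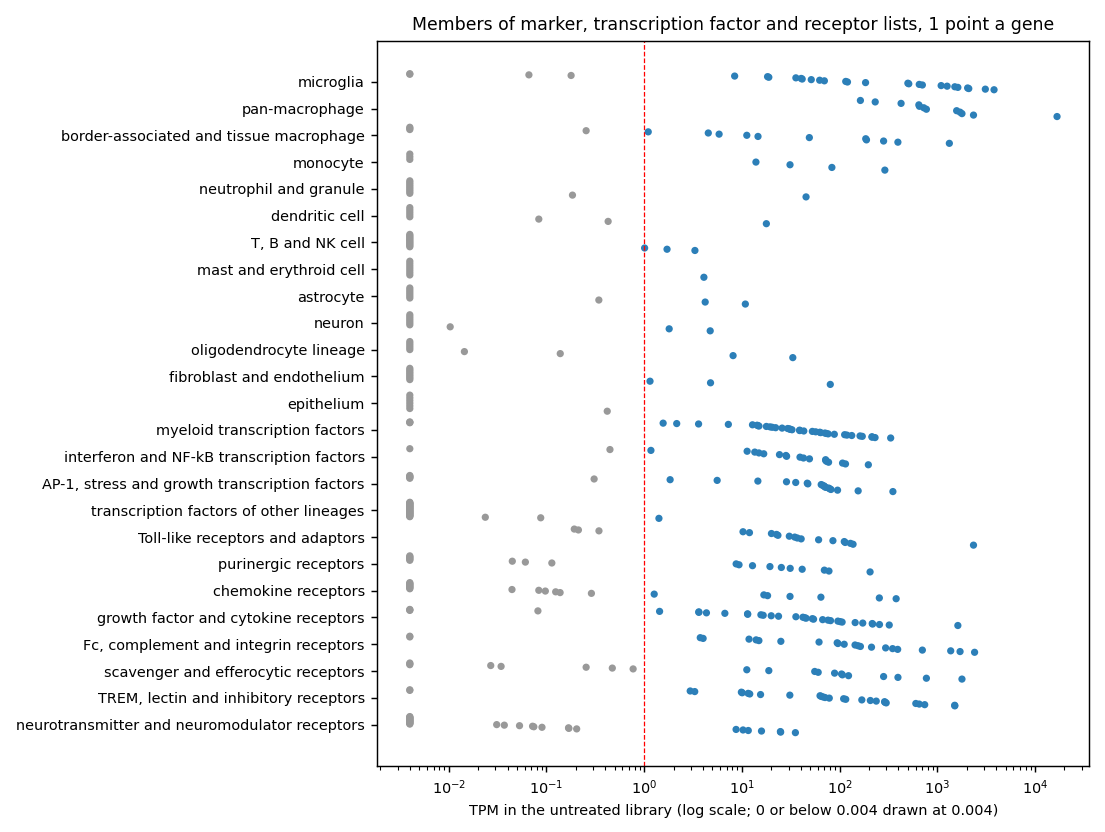
Level in the untreated library of the members of the cell type marker, transcription factor and receptor lists, 1 point per gene, in TPM on a log axis, with values of 0 or under 0.004 drawn at 0.004 and a dashed line at 1 TPM. Blue points are at 1 TPM or more. The macrophage, Fc receptor and TREM and lectin lists lie mostly right of the line, while the lists of other lineages pile up at 0.

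Among secreted factors, 15 of 22 chemokines were present. Ccl2, which recruits monocytes, was at 1876 TPM and reached 2946 in a treated library, Pf4 stood next, and Ccl6 was at 1012 TPM with up to 3279. Ccl12 (868 TPM), Ccl3 (764), Ccl7 (697) and Ccl9 (524) followed; Ccl3 and Ccl4 overlap in the annotation. Ccl2, Pf4, Ccl6, Ccl12, Ccl3, Ccl7 and Ccl9 were all lowest in the untreated library. Cxcl1 and Ccl17 had 0 counts in the untreated cells.

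Of 34 cytokines and growth factors 19 were present (55.9%, against 49.5% of all protein-coding genes). Il1rn, the antagonist of interleukin 1, was at 934 TPM, far above Il1a (23.7) and Il1b (21.1). Tgfb1 was at 297 TPM, Tnf at 84.5 and Igf1 at 64.0. Csf1, the ligand of the CSF1 receptor, was at 20.2 TPM with a range of 20.2 to 24.0, while Il34, its second ligand, was at 0 in all 5 libraries. Vegfa, the ligand of the VEGF receptors, was at 11.8 TPM in the untreated library, 79.1 with 6OHA and 97.1, 100 and 96.9 with BEX. Il6 had 18 counts (0.918 TPM), and Il4, Il10, Il12a, Il13 and Ifng were at 0 in all 5. Of the complement components, 9 of 18 were present (50%, against 49.5% of all protein-coding genes). Among them were the C1q chains, Cfp, the gene of properdin (630 TPM), C3 (153), Cfb (56.0), C1ra (42.2) and C1s1 (15.7). C6, C7, C8a and C9, of the membrane attack complex, were at 0 in all 5.

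State markers were mixed. All 25 genes of a list of disease-associated microglia were present and held 7.09% of the protein-coding TPM, with Lyz2, Fth1, Spp1, B2m, Ctsd and Gpnmb highest and Clec7a lowest. This list shares its leading genes with the most abundant genes of the library. Of the 25 genes, 24 stayed within 2-fold, the exception being Ccl6. This is near the share of all present genes, of which 96.4% did so. Of 13 polarization markers 10 were present. Cd86, a co-stimulatory molecule, was at 174 TPM beside Mrc1, Nos2, the inducible nitric oxide synthase, at 4.58, and Arg1, which encodes arginase, at 3.87 from 99 counts. Arg1 was at 17.2 TPM in the 6OHA library and 109, 123 and 105 in the BEX libraries; its range of 31.7-fold was the widest of the list, and the gene overlaps Gm40616. Retnla and Chil3 were at 0 in all 5. All 15 antigen presentation genes were present, from B2m and Cd74 (4557 TPM) over H2-K1 (1639) and H2-Aa (291) to Ciita (5.18), the activator of class II genes; class I genes are close paralogs, and their reads could be split.

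All 23 proliferation genes were present, with Pcna, the clamp of DNA polymerase, at 517 TPM, Ccnd1 at 365 and Mki67 at 89.7. Each stayed within 1.94-fold, where 96.4% of all present genes stayed within 2-fold. Glycolytic genes counted 19 of 23, led by Pkm (2613 TPM), Aldoa (2210) and Eno1 (1605). Lipid handling genes counted 18 of 22, with Fabp5 at 797 TPM after Apoe. Plin2, which coats lipid droplets, was at 494 TPM and reached 2125, and the exporter Abca1 was at 80.7 TPM and reached 299, so both baselines lie at the bottom of their range.

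Trp53, which encodes p53, was at 1.84 TPM in the untreated library from 69 counts (interval 1.43 to 2.33 TPM), 2.01 in the 6OHA library and 2.11, 1.58 and 1.87 in the BEX libraries. Of 18 genes of its pathway, 15 were present. Bax was at 218 TPM, Cdkn1a, the cell cycle inhibitor p21, at 86.5, Cdkn2a at 65.2 and Mdm2, the ligase that removes p53, at 47.5. Phlda3 and Eda2r were at 0 in all 5 libraries. The genotype label WT and the p53-deficient origin known for the line were not compared further, since counts per gene do not show which exons the 69 reads covered.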

How the data were processed

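RNA of MG5 cells was sequenced from poly-A-selected, stranded libraries, per the labels' protocols. The authors deposited 1 gene table with read counts, FPKM and TPM per library for mm10. The submitters' processing notes list StringTie 2.1.3b, HISAT2 2.1.0, Bowtie2, SAMtools 1.9, Trimmomatic 0.38 and bcl2fastq 2.20.0; their roles, and whether counting used strand, are not given in the sources used here. TPM was used as deposited. CPM, ranks, sums and exact Poisson intervals (95%, scaled from counts to TPM) were computed with Python 3.11.15, pandas 2.3.3, NumPy 2.4.6 and SciPy 1.17.1. Intervals and presence calls were run on Poisson counts simulated from the untreated counts. That checks the calculation only and says nothing on variation between libraries. No test was made, since the untreated group has 1 library. Alternatives were other limits of presence, CPM or FPKM in place of TPM, and left-out libraries. The members and lists were chosen with earlier results of these data known. Named were the 30 most abundant genes and, per list, the highest members (up to 6), members at 0 counts and those a comparison of roles needed; any transcription factor or receptor could be named. Overlapping genes shared at least 1 position with the named gene in the RefSeq coordinates. They were named only if their untreated count was at least 20% of that gene's count and at least 10. The symbol pattern for mitochondrially encoded genes was set after seeing the table. Promoters came from RefSeq GRCm38.p6 and matched 17519 protein-coding genes (79.8%); a comparison of promoter features across levels was void, since under 80% had one. Where a gene had several starts the first listed was used. Some members of the lists are counted but not reported here by name.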

Additional observations from a re-analysis of the deposited data

How the results depend on the processing

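The concentration of the library in few genes depended on the unit and the gene set. The share of the 10 most abundant genes was 13.6% of protein-coding TPM, 13.1% with all biotypes in the denominator, 7.92% in read counts and 11.5% without the mitochondrially encoded genes. The share of the 100 most abundant was 33.7%, and 32.6%, 22.6% and 28.6% under the same settings. Counts of genes held within 1.5 times: 10246 to 11306 present and 7448 to 9973 at 0 counts, 14 to 18 nuclear receptors present, and 24 microglia markers in every setting. Of 234 counts over 39 other lists, 227 held within 1.5 times, and 7 small ones (lymphocyte, astrocyte, neuron and other-lineage lists, each with at most 3 members present) moved. Leaving out each BEX replicate in turn gave 10522 to 10528 present genes within 2-fold, and leaving out the 6OHA library 10579, against 10473. No paired analysis was possible because the untreated group has 1 library and no test was made. For the same reason the untreated library could not be left out. Precision is limited mainly below 1 TPM, where a present or absent call rests on few counts, and no second untreated library shows how far the baseline itself varies.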

Other observations

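Of the gene families defined by symbol, 309 of 394 Zfp zinc finger genes were present (78.4%, against 49.5% of all protein-coding genes). Solute carriers (188 of 373, 50.4%), histones (13 of 28, 46.4%) and cathepsins (12 of 22, 54.5%) lay near that share. Several other families had few members present. Of 1110 olfactory receptor genes, 1078 had 0 counts and 3 were present: Olfr111 at 17.7 TPM from 1223 counts (14 in the 6OHA library and 11.1, 9.28 and 9.38 in the BEX libraries), Olfr110 at 5.90 TPM and Olfr132 at 1.69 TPM. Olfr110 and Olfr111 lie near each other on chromosome 17 and are related, so reads could be shared. Vomeronasal receptors counted 1 of 328 present, taste receptors 0 of 38 and keratins 2 of 53. Of 39 Hox genes, which pattern the body axis, 4 were present, among them Hoxb7 at 12.6 TPM (10.6 to 12.6 over the 5 libraries), Hoxb4 at 5.06 and Hoxb6 at 4.40. Of 19 Wnt ligands, Wnt6 was present at 3.79 TPM. Among 97 cytochrome P450 genes 16 were present, and the highest was Cyp2c69 at 83.2 TPM (68.4 to 83.2), a member of a mouse subfamily of close copies among which reads could be split.

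None of the 258 protein-coding genes of chromosome Y was present. The non-coding Xist, which is not a protein-coding member, was at 29.4 TPM in the untreated library, 51.1 in the 6OHA library and 41.9, 45.2 and 36.3 in the BEX libraries. Malat1, another non-coding RNA, was at 52.2 TPM without treatment and from 107 to 121 TPM with it, while Neat1 was at 246 TPM against 231 to 270.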
